A study of Mus musculus with 14 samples.

Results

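Transcripts of neutrophils, monocytes and lysozyme-producing myeloid cells were followed in mouse epididymal white adipose tissue (eWAT), a visceral fat depot. They are 10 of the 23282 genes counted, chosen by symbol as markers of these cells. The calprotectin genes are S100a8 and S100a9, the neutrophil granule and receptor genes are Ngp, Mpo, Retnlg and Csf3r, the monocyte genes are Ly6c2 and Plac8, and the lysozyme genes are Lyz1 and Lyz2.

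The 14 libraries came from wild type male C57BL/6J mice, bought when 4 weeks old, that received a standard diet (control) or a Western diet (WD) for 20 weeks. No transgene or drug was used. In batch 1, 4 control libraries (replicates 1 to 4) and 5 WD libraries (replicates 1 to 5) were sequenced, and batch 2 held 5 further controls (replicates 5 to 9). All WD libraries belong to batch 1, so that diet and batch cannot be told apart where WD is compared with the batch 2 controls. The labels number the libraries without saying that each came from a separate mouse, and p-values therefore measure the spread between libraries.

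Neutrophils fill their granules in the bone marrow and then circulate with most of their granule mRNA already lost, whereas the mRNAs of calprotectin and of surface receptors persist in mature cells. Inflammatory monocytes carry Ly6C on their surface, enter fat during weight gain and can become macrophages, which produce large amounts of M lysozyme. In whole fat, fewer cells of a type and less RNA per cell cannot be told apart.

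QuantSeq libraries are primed at the poly(A) tail and give 1 read near the 3′ end of a transcript. Total counts ranged from 10278970 to 13712254 per library. At this depth 3 counts, the smallest level taken as shown, corresponded to between 0.212 and 0.324 CPM (the count scaled to library size after TMM normalization), which covers counting error only. A pair of batch 1 controls stood apart. Control replicate 1 held 68232 summed CPM of 10 epididymis genes, against at most 22.2 in the other libraries, and control replicate 4 had 7999 genes with a count, against 10903 to 13780 elsewhere. The sum over 7 adipocyte genes was only 5087 CPM for control replicate 1, while every other library reached 27949 to 55529 CPM. Where leaving these libraries out changed a call or a direction, both values are given.

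In batch 1, mean Lyz2 was higher in WD fat and mean S100a9 and Retnlg were lower, but none of these differences passed the FDR threshold. Mean Ngp was also lower, and it had too few counts to be tested there. In this comparison, 7 of the 10 genes had enough counts to be tested by edgeR's quasi-likelihood test, and 0 of them had an FDR under 0.05, which was also the share among all genes tested (0% of 12157). At an unadjusted p under 0.05, 628 genes (5.17%) passed, among them Lyz2 and no other of the 7. DESeq2 called 114 genes (0.938%) and none of the 7. In no gene of the 10 did all WD libraries lie beyond all batch 1 controls, against 3.87% of genes tested.

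S100a8 and S100a9 encode the subunits of calprotectin, a calcium-binding protein that makes up much of the neutrophil cytosol and is also made by monocytes. The genes are neighbours on chromosome 3 of mm10, with S100a8 at chr3:90669071-90670034 on the plus strand and S100a9 at chr3:90692630-90695721 on the minus strand, 22596 bases apart. S100a8 counts were 1133, 1558, 1009 and 1716 in control replicates 1 to 4, 670, 1355, 632, 884 and 572 in WD replicates 1 to 5, and 79, 122, 416, 733 and 644 in control replicates 5 to 9. In CPM, 4 of the 5 WD libraries lay below the lowest batch 1 control and WD replicate 2 lay above the highest. Means were 115 ± 21.004 CPM (SD, n = 4) in batch 1 controls, 71.4 ± 42.5 CPM (n = 5) in WD and 33.7 ± 26.1 CPM (n = 5) in batch 2 controls.

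The lowest S100a8 levels were thus in the batch 2 controls, and all 5 of them lay below all 4 batch 1 controls, at most 64.3 against at least 84.1 CPM. Such a separation in this direction occurred in 1.16% of the 12106 genes tested between the control batches, where 0% had an FDR under 0.05 and 7.39% an unadjusted p under 0.05. The log2 fold change of S100a8 between the batches was −1.78 (SE 0.59, unadjusted p = 0.0105, FDR = 0.475 by edgeR's quasi-likelihood test). By diet it was −0.69 (SE 0.39, FDR = 1.0, edgeR) against batch 1 controls and 1.07 (SE 0.53, FDR = 0.313, edgeR) against batch 2 controls. The sign of the S100a8 difference therefore depended on which control batch was used. With all 9 controls and no batch term it was 0.01 (SE 0.56).

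Over all 14 libraries, log2(CPM + 1) of S100a9 and S100a8 had a Pearson's r of −0.07, which pools the groups and includes control replicate 4. S100a9 counts were 743, 1871, 658 and 0 in batch 1 controls, 258, 97, 97, 606 and 217 in WD, and 439, 363, 321, 866 and 556 in batch 2 controls. Control replicate 4 had no S100a9 read although it had the highest S100a8 count of all libraries. Mean S100a9 levels were 72.8 ± 64.8 CPM (SD, n = 4), 20.4 ± 16.2 CPM (n = 5) and 42.3 ± 17.8 CPM (n = 5), and the log2 fold change by diet in batch 1 was −1.84 (SE 1.11, FDR = 1.0, edgeR). It was −1.16 (SE 1.24) without control replicate 2. Without control replicate 4 it was −2.27 (SE 0.57, FDR = 0.129, edgeR), and the WD libraries, 7.18 to 48.0 CPM, all lay below the other 3 controls, 54.8 to 156 CPM. Against batch 2 controls it was −1.05 (SE 0.46, FDR = 0.229, edgeR). limma-voom, which moved the median of all genes to 0.42, turned the batch 1 value of S100a9 to 1.12.

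The number of S100a9 counts per S100a8 count, a ratio that needs no normalization, was 0.656, 1.201, 0.652 and 0 in batch 1 controls. It was 0.385, 0.0716, 0.153, 0.686 and 0.379 in WD libraries, and 5.56, 2.98, 0.772, 1.18 and 0.863 in batch 2 controls. All WD ratios were lower than all batch 2 ratios, and a two-sided exact permutation test of the ratio gave p = 0.00794, the smallest that 5 against 5 libraries allow. Against batch 1 controls the ratios overlapped (exact permutation p = 0.294). These ratios were examined after the values had been seen, and diet and batch cannot be told apart in the first comparison.

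**Figure D1:**
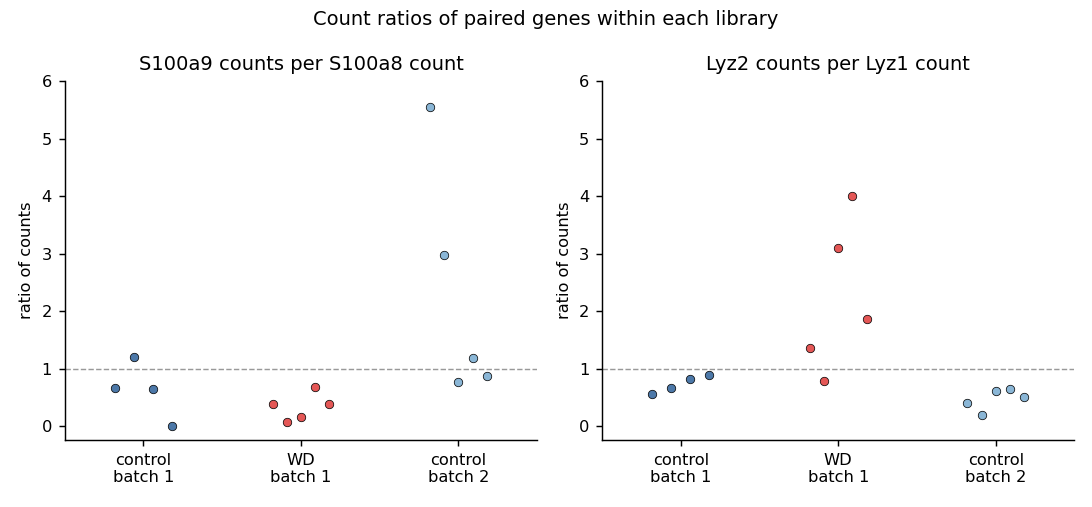
Ratios of counts within each library, on linear axes, for S100a9 per S100a8 (left) and Lyz2 per Lyz1 (right), with 1 point per library and the dashed line at a ratio of 1. The 5 WD ratios of S100a9 to S100a8 lie below 0.7 and below every batch 2 control, while 4 of the 5 WD ratios of Lyz2 to Lyz1 lie above 1 and no control does.

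Of the granule and receptor transcripts of neutrophils, Ngp and Retnlg had their highest group means in batch 1 controls, Csf3r was near the floor and Mpo had no read. None of these genes was called in either comparison. Ngp encodes neutrophilic granule protein, a relative of the cathelicidins that is made by immature neutrophils (chr9:110419808-110423012, plus strand). Ngp counts were 115, 111, 64 and 0 in batch 1 controls, 0 in each of the 5 WD libraries, and 0, 0, 0, 14 and 0 in batch 2 controls. Reads of Ngp were thus found in 3 of 4 batch 1 controls and in 1 of the other 10 libraries. With the floor of 3 counts per library in place of 0, mean Ngp was at least 27.2-fold lower in WD than in batch 1 controls, whose mean was 6.75 ± 5.35 CPM (SD, n = 4).

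Ngp did not pass the filter on low counts in the comparison of diets in batch 1. On the log2(CPM + 1) scale WD minus control was −2.44 by a two-sided exact permutation test (p = 0.0476), and p was 0.107 to 0.143 when any library but control replicate 4 was left out. Without control replicate 4 the difference was −3.26 (exact permutation p = 0.0179, the smallest that 3 against 5 allow). In edgeR, where Ngp then passed the filter through its control counts, the FDR was 0.105. The control batches differed by a log2 fold change of −4.91 (SE 2.19, unadjusted p = 0.0446, FDR = 0.649, edgeR's quasi-likelihood test), with batch 2 lower. Here too Ngp passed the filter through the group in which it was high.

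Retnlg encodes resistin-like gamma, a secreted protein of the resistin family found in neutrophils (chr16:48872608-48874498, plus strand). Retnlg counts were 173, 214, 290 and 0 in batch 1 controls, 48, 0, 0, 28 and 36 in WD, and 28, 16, 65, 155 and 177 in batch 2 controls. Control replicate 4 and WD replicates 2 and 3 had no read, and the other 3 batch 1 controls, 17.9 to 24.2 CPM, lay above all WD libraries, 0 to 3.39 CPM. The mean was 15.2 ± 10.5 CPM (SD, n = 4) in batch 1 controls, 1.72 ± 1.63 CPM (n = 5) in WD and 7.58 ± 6.99 CPM (n = 5) in batch 2 controls. The log2 fold change by diet was −3.14 (SE 1.77, unadjusted p = 0.101, FDR = 1.0, edgeR) in batch 1, −3.56 (SE 1.36, FDR = 0.365) without control replicate 4, and −2.13 (SE 1.23, FDR = 0.424) against batch 2 controls.

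Without control replicate 4, the WD libraries lay below all remaining batch 1 controls for S100a9, Ngp and Retnlg, 3 of the 8 genes then tested, against 3.50% of the 12901 genes tested in that comparison. Control replicate 4, the library left out, was itself the batch 1 control with no read of these 3 genes. With it kept, the groups overlapped for each of them. This count was made after the values had been seen, and Ngp was tested only because its control counts were high. The count therefore cannot be weighed against the share among all genes. The FDR of the 3 genes was 0.129, 0.105 and 0.365 in edgeR, where 0.372% of genes tested had an FDR under 0.05.

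Csf3r encodes the receptor for granulocyte colony-stimulating factor, which drives the production of neutrophils (chr4:126024659-126044975, plus strand). Csf3r counts were 2, 24, 0 and 0 in batch 1 controls, 11, 0, 4, 1 and 16 in WD, and 1, 0, 0, 0 and 2 in batch 2 controls. Only control replicate 2 and WD replicates 1 and 5 had more than 10 reads, and the groups overlapped. Of its 327 stretches of 75 bases near the 3′ end, 12 (3.67%) are also in other genes. The gene was too low for edgeR, and the exact permutation test in batch 1 gave p = 0.921 for a log2 difference of 0.04. Mpo encodes myeloperoxidase, the main enzyme of the primary granules formed in the marrow (chr11:87793784-87804412, plus strand). Mpo had 0 counts in all 14 libraries, which allows a level of up to 0.212 to 0.324 CPM. Exons of an antisense gene, Gm11505, overlap it.

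**Figure D2:**
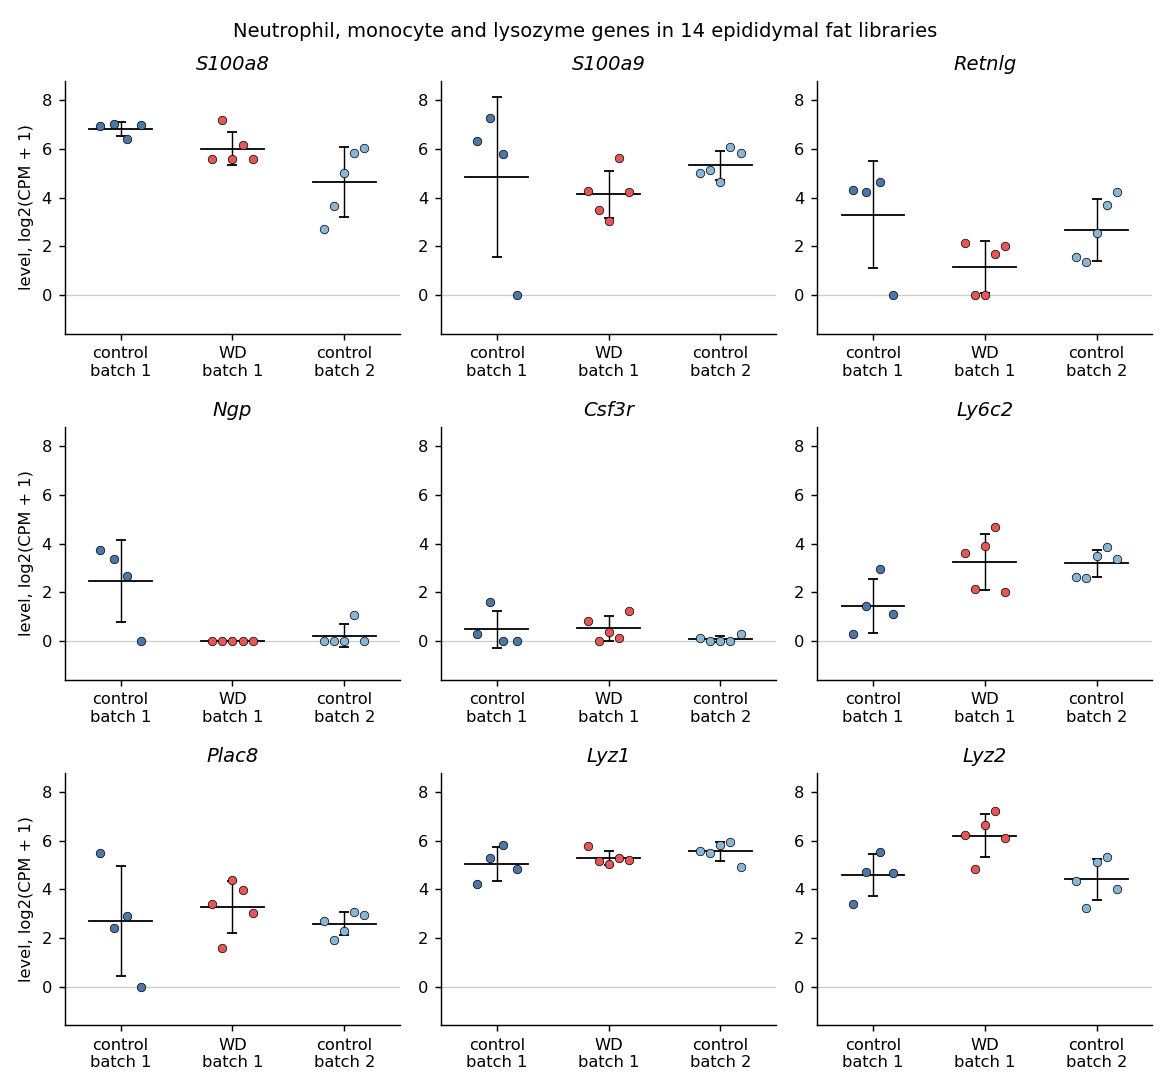
Levels of the 9 genes with counts, as log2(CPM + 1), in batch 1 controls (n = 4), WD (n = 5) and batch 2 controls (n = 5), with 1 point per library, a line at the mean and bars of 1 SD. Ngp is at 0 in all 5 WD libraries, S100a8 in batch 2 controls lies below batch 1 controls, and control replicate 4, the last point of its group, is at 0 for S100a9, Retnlg, Ngp, Csf3r and Plac8.

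Neither monocyte gene was called by diet. Ly6c2 encodes an Ly6C antigen that marks inflammatory monocytes (chr15:75108161-75111949, minus strand). Ly6c2 counts were 2, 20, 80 and 16 in batch 1 controls, 157, 32, 185, 307 and 36 in WD, and 72, 53, 135, 174 and 94 in batch 2 controls. WD replicates 1, 3 and 4 lay above the highest batch 1 control, and WD replicates 2 and 5 lay among the controls of batch 1 and below those of batch 2. Mean Ly6c2 was 2.43 ± 2.89 CPM (SD, n = 4), 11.1 ± 8.74 CPM (n = 5) and 8.58 ± 3.53 CPM (n = 5). The log2 fold change by diet was 2.18 (SE 1.28, unadjusted p = 0.112, FDR = 1.0, edgeR) against batch 1 controls, and the exact permutation test gave p = 0.0556. It was 3.41 (SE 1.48) without control replicate 3 and 1.41 (SE 1.16) without control replicates 1 and 4. Against batch 2 controls it was 0.37 (SE 0.61, FDR = 0.866, edgeR).

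Ly6c2 shares its 3′ sequence with Ly6c1, a relative also made by endothelial cells. Of the 608 stretches of 75 bases (the read length) in the last 400 bases of its transcripts, 133 (21.9%) are also in Ly6c1, and all 608 match it with up to 3 mismatches. Because unique and multiple alignments were both counted, reads of these genes may have been assigned to either, and the Ly6c2 values are uncertain. Ly6c1 counts were 324, 1924, 1865 and 654 in batch 1 controls, 1681, 864, 1073, 1088 and 995 in WD, and 1213, 896, 1207, 2516 and 966 in batch 2 controls. The diet difference of Ly6c1 was −0.12 (SE 0.44, FDR = 1.0, edgeR), and its groups overlapped.

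There were 0.00617 to 0.0429 Ly6c2 counts per Ly6c1 count in batch 1 controls, 0.0362 to 0.282 in WD and 0.0592 to 0.112 in batch 2 controls. WD exceeded batch 1 controls (log2 difference 2.49, exact permutation p = 0.0476), and so did the batch 2 controls on the same diet as these (2.25, exact permutation p = 0.00794). Between WD and batch 2 controls the log2 difference was 0.24 (exact permutation p = 0.770). The difference of WD from batch 1 controls was 2.03 to 2.96 with 1 library left out, and p was then above 0.05 in 8 of 9 cases.

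Plac8 encodes a small cysteine-rich protein found in monocytes, neutrophils and several other cell types (chr5:100553733-100572205, minus strand). Plac8 counts were 412, 52, 78 and 0 in batch 1 controls, 137, 19, 270, 188 and 85 in WD, and 77, 29, 52, 97 and 66 in batch 2 controls. The highest value was in control replicate 1, the library with epididymis transcripts, and the lowest in control replicate 4. The log2 fold change in batch 1 was −0.38 (SE 1.31, FDR = 1.0, edgeR), and it turned to 1.57 without control replicate 1 and 0.99 without both libraries. Against batch 2 controls it was 1.03 (SE 0.63, FDR = 0.466, edgeR), and Plac8 gave no direction by diet that held across these comparisons.

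Lyz1 and Lyz2 encode lysozymes, enzymes that cut bacterial cell walls. Lyz2 is the M lysozyme of macrophages, monocytes and neutrophils, and Lyz1 is the P lysozyme best known from Paneth cells of the gut. They lie next to each other on the minus strand of chromosome 10, Lyz2 at chr10:117277541-117282272 and Lyz1 at chr10:117287795-117292868, 5523 bases apart, and no other gene overlaps either. The stretch upstream of each start is shown because the genes are near copies whose count ratio was compared between diets. Whether these letters bear on that ratio was not tested. From 150 to 50 bases before the start, the sequences (RefSeq, GRCm38.p6, read 5′ to 3′ on the minus strand, chr10:117292918-117293018 for Lyz1 and chr10:117282322-117282422 for Lyz2) were identical at 80 of 101 positions (79.2%) without gaps. Capitals mark the reverse complement of GGAAGT, the core letters bound by ETS factors such as PU.1.
Lyz1: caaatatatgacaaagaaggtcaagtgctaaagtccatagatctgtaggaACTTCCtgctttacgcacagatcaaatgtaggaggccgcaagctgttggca
Lyz2: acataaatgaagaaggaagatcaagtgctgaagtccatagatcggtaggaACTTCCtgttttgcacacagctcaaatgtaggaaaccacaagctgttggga
In both genes these letters lie 100 to 95 bases before the start. On either strand, GGAAGT was found within 250 bases upstream of the start in 6 of the 10 genes and in 19.7% of all 32851 promoters. The letters TTGCNNAA, the C/EBP pattern, were found in 5 of the 10 and in 9.56% of promoters, and among the lysozyme genes in Lyz1 and not in Lyz2. The longer PU.1 pattern GAGGAAGT was in neither lysozyme gene, but in 3 of the 10 (Ly6c2, Mpo and S100a8) and in 2.44% of promoters. TATAAA, the TATA box, was in S100a8 alone and in 12.4% of promoters. The 10 were counted by gene, and a gene can have more than 1 promoter entry. A match is a run of letters and does not show that a factor binds.

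Lyz2 counts were 89, 306, 546 and 336 in batch 1 controls, 1046, 255, 1340, 1899 and 812 in WD, and 272, 89, 450, 518 and 150 in batch 2 controls. WD replicates 1, 3, 4 and 5 lay above every control of both batches, and WD replicate 2 lay among them. Mean Lyz2 was 26.3 ± 14.7 CPM (SD, n = 4), 83.7 ± 45.3 CPM (n = 5) and 23.2 ± 13.02 CPM (n = 5), or 3.19-fold higher in WD than in batch 1 controls and 3.61-fold higher than in batch 2 controls. The log2 fold change was 1.67 in batch 1 (SE 0.53, unadjusted p = 0.00819, FDR = 0.557 by edgeR's quasi-likelihood test), and 1.24 (SE 0.54, FDR = 0.482) without control replicates 1 and 4. The exact permutation test in batch 1 gave p = 0.0317, and p was 0.0571 to 0.0893 in 7 of 9 cases with 1 library left out, highest without control replicate 1. With library totals in place of TMM it was 0.0556 (exact permutation).

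Against batch 2 controls Lyz2 rose by 1.84 (SE 0.44, FDR = 0.0168, edgeR). It was the only gene of the 7 tested with an FDR under 0.05 there, where 773 of 12070 genes (6.40%) were called and 474 (3.93%) were higher, and diet and batch cannot be told apart. With all 9 controls and no batch term the value was 1.76 (SE 0.41, FDR = 0.0655, edgeR), where 0.530% of genes were called. Between the control batches, Lyz2 differed by −0.19 (SE 0.59). The study chose its list of raised genes on these same samples, and that list is not independent evidence of the direction of Lyz2.

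Lyz1 counts were 162, 458, 668 and 376 in batch 1 controls, 769, 329, 432, 475 and 436 in WD, and 670, 463, 736, 802 and 293 in batch 2 controls. The groups overlapped throughout. Mean Lyz1 was 34.7 ± 16.4 CPM (SD, n = 4), 39.1 ± 8.74 CPM (n = 5) and 47.4 ± 12.2 CPM (n = 5), and the log2 fold change by diet was 0.17 (SE 0.43, FDR = 1.0, edgeR) in batch 1 and −0.29 (SE 0.26, FDR = 0.668, edgeR) against batch 2 controls.

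Within libraries, Lyz2 counts per Lyz1 count ranged from 0.549 to 0.894 in batch 1 controls, 0.775 to 4.00 in WD and 0.192 to 0.646 in batch 2 controls. The mean log2 ratio was 1.40 higher in WD than in batch 1 controls (exact permutation p = 0.0397) and 2.12 higher than in batch 2 controls (p = 0.00794, exact permutation, no overlap). Between the control batches it differed by −0.72 (exact permutation p = 0.0873). The batch 1 difference remained between 1.13 and 1.72 with any library left out, but p was then above 0.05 in 8 of 9 cases. Of 326 stretches of 75 bases in the last 400 bases of each transcript, 30 (9.20%) are the same in both genes, and 55.5% of Lyz1 stretches match Lyz2 with up to 3 mismatches, so that reads may have been counted at both.

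**Figure D3:**
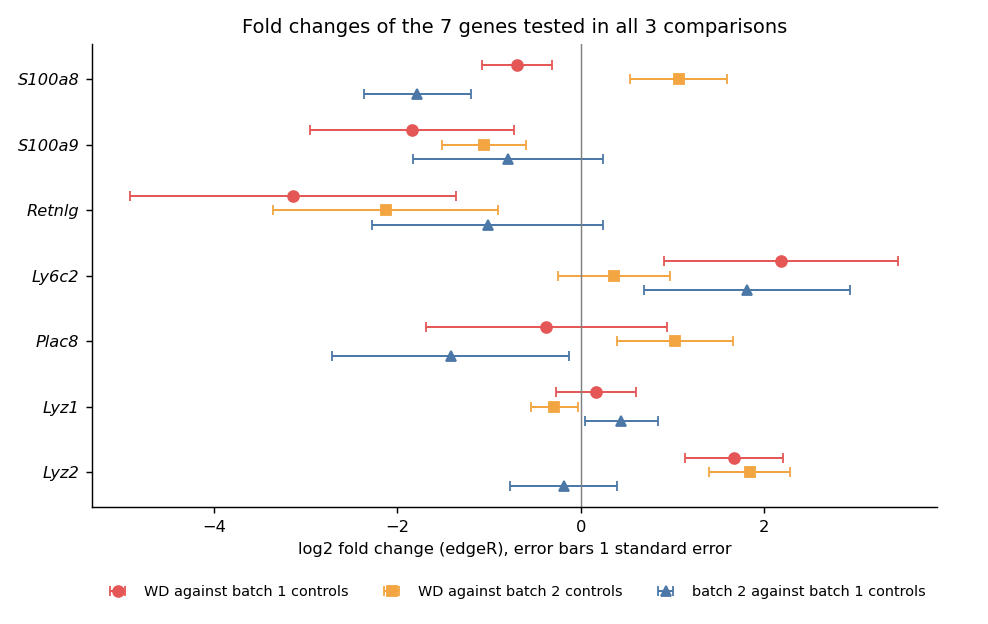
Log2 fold changes (edgeR) of the 7 genes tested in all 3 comparisons, with bars of 1 SE, for WD against batch 1 controls (circles), WD against batch 2 controls (squares) and batch 2 against batch 1 controls (triangles). Lyz2 lies at 1.67 and 1.84 in the comparisons of diet and at −0.19 between control batches, while S100a8 lies on opposite sides of 0 in the comparisons of diet. The comparisons share control or WD libraries and are not independent.

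Other markers of the same cells gave the following counts. Of 26 further neutrophil genes, 2 had no read in any library and 11 were tested by diet in batch 1. Of these 11, 0 had an FDR under 0.05, 4 were above and 7 below 0, and their median log2 fold change was −1.13, beside 0.03 for all genes tested. Against batch 2 controls, 5 of 9 tested were above and 4 below 0, and the median was 1.29. Mgst1 was called lower there (−0.94, SE 0.24, FDR = 0.0263, edgeR), where 6.40% of all genes tested were called and diet and batch cannot be told apart. Camp (cathelicidin), a granule gene, had reads in 2 libraries, with at most 27 counts, and Ltf (lactoferrin) had 186 counts in a batch 1 control and 2 in a WD library. The summed level of all 26 further neutrophil genes was 291 to 1046 CPM in batch 1 controls, 168 to 356 CPM in WD and 385 to 577 CPM in batch 2 controls. Most of it came from Mgst1, a glutathione transferase also made by other cells. The exception was control replicate 1, the library with epididymis transcripts, with 7755 counts of Lcn2 (lipocalin 2). These were named after their values were seen.

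Of 17 further monocyte genes, 13 were tested by diet in batch 1, 0 passed and the median was 0.75. Without control replicates 1 and 4, where 0.796% of all genes tested were called, 1 of 16 rose, Csf1r (2.09, SE 0.38, FDR = 0.0207, edgeR), and the median was 1.41. Their summed level was 463 to 869 CPM in batch 1 controls, 1051 to 1478 CPM in WD and 561 to 986 CPM in batch 2 controls. In WD the largest part of this sum was Csf1r, with a mean of 586 CPM, against 178 CPM in batch 1 controls and 149 CPM in batch 2 controls. Of the 13 genes tested in batch 1, 9 were above and 4 below 0. Ccr2 and the genes that rose against batch 2 controls were named after the values had been seen. In that comparison, where diet and batch cannot be told apart, 3 of 12 rose, beside 3.93% of all genes tested. They were Csf1r, the receptor for macrophage colony-stimulating factor (1.96, SE 0.35, FDR = 0.00221, edgeR), Cx3cr1, the fractalkine receptor (5.39, SE 1.28, FDR = 0.0164), and Fcgr4, an Fc receptor (4.44, SE 1.17, FDR = 0.0298). Ccr2, the receptor by which inflammatory monocytes enter tissue, gave 0.58 (SE 0.69) in batch 1 and 0.26 (SE 0.30) against batch 2 controls.

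Macrophages make Lyz2, and their transcripts are given beside it. The summed level of 12 macrophage genes was 682 to 3055 CPM in batch 1 controls, 3087 to 5419 CPM in WD and 564 to 1101 CPM in batch 2 controls. The highest batch 1 control was replicate 4, and the other 3 reached at most 1491 CPM. Of 11 tested, 0 passed in batch 1, where the median was 1.45. Against batch 2 controls, where diet and batch cannot be told apart, 10 rose, beside 3.93% of all genes tested. Without control replicate 4 the median was 2.38 and 4 rose, and 4 also rose without replicates 1 and 4. Of all genes tested, 0.372% and 0.796% were called in these fits. In both fits the 4 macrophage genes were Adgre1, Gpnmb, Lgals3 and Trem2, named after their values were seen. Their part in the Lyz2 difference was not tested. The summed level of 11 red cell and platelet genes, a measure of blood in the sample, was 1965 to 10528 CPM in batch 1 controls, 3222 to 9045 CPM in WD and 5609 to 10674 CPM in batch 2 controls, and the groups overlapped. Of 9 tested in batch 1, 0 passed. The part of blood content in the neutrophil values was not tested.

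**Figure D4:**
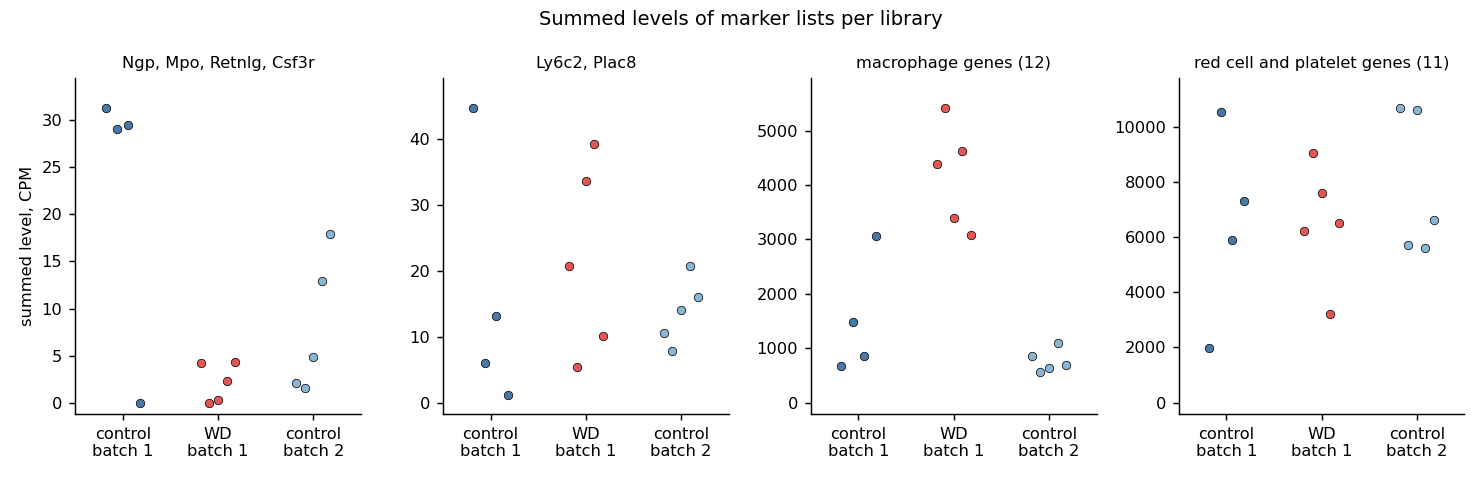
Summed CPM per library, on linear axes, of Ngp, Mpo, Retnlg and Csf3r, of Ly6c2 and Plac8, of 12 macrophage genes and of 11 red cell and platelet genes, with 1 point per library. The neutrophil sum is 29.1 to 31.3 CPM in 3 of the 4 batch 1 controls, 0 in control replicate 4 and at most 4.33 CPM in WD, and the macrophage sum is at least 3087 CPM in all WD libraries.

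Across the 14 libraries, the genes most like each marker by Pearson's correlation of log2(CPM + 1) were found among 13247 genes with a mean of at least 1 CPM. Such maxima over many genes and few libraries are descriptions only, and the points share batch, diet and depth. For Lyz2 they were Ms4a6c (r = 0.92), a membrane gene of monocytes and macrophages, Abcg1 (r = 0.92), a cholesterol exporter, and Tmem140 (r = 0.91). For Plac8 they were the ribosomal protein genes Rpl5 (r = 0.91), Rps29 (r = 0.89) and Rps6 (r = 0.89). The closest genes were Zbtb11 for S100a8 (r = 0.81), Gm5801 for S100a9 (r = 0.93), Zfand4 for Ngp (r = 0.98), Ddit4 for Retnlg (r = 0.90), Pdk3 for Ly6c2 (r = 0.90) and Ttyh2 for Lyz1 (r = 0.88).

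Among the markers themselves, S100a9 and Retnlg varied together (r = 0.80, n = 14 libraries), and so did Ngp and Retnlg (r = 0.71). S100a8 and S100a9, whose products form a complex, had r = −0.07 over the same libraries, and Lyz1 and Lyz2 had r = 0.32. These values include control replicate 4, which had no read of S100a9, Ngp or Retnlg and the highest S100a8 count. They were not computed without it or within single groups.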

How the data were processed

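RNA of epididymal fat was measured by QuantSeq 3′ mRNA sequencing in 14 libraries. The authors sequenced single-end reads of 75 bases, aligned them with Bowtie2, counted unique and multiple alignments with bedtools and deposited raw counts of 23282 genes. The submitters' processing notes name mm10. The authors also deposited log2 values, which differed from log2(CPM + 1) computed here by at most 0.0507. Molecular identifiers are not mentioned, so read copies were not removed.

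Counts were tested with edgeR 4.0.16 (quasi-likelihood, TMM, its filter on low counts, FDR over all genes tested, threshold 0.05) in R 4.3.3, without covariates, for 4 control against 5 WD libraries of batch 1 and for batch 2 against batch 1 controls. Single genes were compared by two-sided exact permutation tests of log2(CPM + 1), unadjusted. With 4 against 5 libraries the smallest p is 0.00794. Alternatives used limma 3.58.1 (voom), DESeq2 1.42.0, other normalizations and filters, thinned counts, a pseudocount of 0.1, other sets of libraries and the replicate number as a block. Levels, ratios and plots were made with Python 3.11.15 and matplotlib 3.10.9.

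The 10 genes and the marker lists were chosen with earlier results of these data known. The named genes were the 10, list genes with an FDR under 0.05 in either main comparison (there were none), Ly6c1, Camp and Ltf, and for each gene with a mean of at least 1 CPM the 3 most correlated genes. Where any other gene is named, the text says that it was picked with its values in view. The count ratios and their alternatives were added after the data were seen. Promoter sequences of all 10 genes were matched by symbol in a RefSeq table of GRCm38.p6. Ly6g was listed among 27 further neutrophil genes, but none of the genes counted carries that symbol, so 26 were used. In a simulation in which 200 of 11243 genes were shifted 3 log2 units, edgeR recovered 69 for the comparison of diets with 4 wrong calls, and DESeq2 recovered 110 with 65 wrong calls. The simulated counts used the gene means of the data and the spread estimated by edgeR itself. They held no library that stood apart as control replicates 1 and 4 do. These numbers are therefore not error rates for the real libraries. The lowest chi-square per gene between libraries of a group was 34.9, more than counting error alone gives. This value does not show whether libraries came from separate mice or separate RNA. Libraries of different groups were not compared in this way.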

Additional observations from a re-analysis of the deposited data

Results flagged for a closer look

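In 3 of 26 groups of 4 or 5 libraries, the highest or lowest library was separated from the others by more than Dixon's critical share of the range. For normally distributed values chance would flag about 1.3 of 26 groups. Some groups here are mostly 0, where a lone library with reads is flagged whatever its count, so these numbers cannot be compared. S100a8 in control replicate 3 was at 6.41 on the log2(CPM + 1) scale (1009 counts), while the other batch 1 controls were at 6.95 to 7.03. Ngp in control replicate 8 was at 1.05 (14 counts), the only batch 2 control above 0. Retnlg in control replicate 4 was at 0, while the other batch 1 controls were at 4.24 to 4.65.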

How the results depend on the processing

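The count of genes by diet in batch 1 (0) became 114 with DESeq2, 108 without control replicates 1 and 4, 67 with all 14 libraries, 1 with batch as covariate and 773 against batch 2 controls (1 of the 10 genes). With 1 library left out it was 0 to 48, highest without control replicate 4. Between control batches (0), it was 111 with DESeq2, 28 without replicates 1 and 4, 1 in a fit of 3 groups and 0 to 2 with 1 library left out. No left-out library gave a call among the 10. The exact permutation count by diet (2 of 9 genes under 0.05) was 1 with 9 controls and 0 to 3 with 1 library left out. Against main values, log2 fold changes by diet reversed for S100a8 (0.013 with all libraries, 1.07 against batch 2), S100a9 (1.12 with limma-voom), Plac8 (1.96 with limma-voom, −0.81 to 1.57 with 1 library left out, highest without control replicate 1, 0.99 without 1 and 4, 0.26 with all libraries, 1.03 against batch 2) and Lyz1 (−0.048 to 0.47 with 1 library left out, lowest without control replicate 1, −0.26 without 1 and 4, −0.11 with all libraries, −0.29 against batch 2). Between control batches limma-voom reversed S100a9 (2.40), Retnlg (0.45) and Plac8 (1.05), and with 1 library left out Plac8 ranged from −1.78 to 0.53 (above 0 without control replicate 1) and Lyz2 from −0.47 to 0.21 (above 0 without replicate 3 or 6). Permutation differences reversed for S100a8 (0.40) and Lyz1 (−0.024) with 9 controls and S100a9 with a pseudocount of 0.1 (0.026). With 1 library left out they ranged from −2.35 to 0.086 for S100a9, −0.14 to 0.41 for Csf3r, −0.33 to 1.51 for Plac8 and −0.012 to 0.53 for Lyz1. The causes were not tested. The strict filter left 3 of the 10 genes. Mpo, Csf3r and Ngp were at or below 3 counts in most libraries, and in those libraries a lower level could not be shown at this depth.

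Same-numbered control and WD libraries deviated with r = −0.02 to 0.08, so that they share a number only. With the replicate block, 0 genes were called and Plac8 reversed to 0.68, with no other change of call or direction. The control batches share no numbers, and no such fit was possible for them.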

Other observations

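Other relatives of the 10 genes differed between WD and batch 2 controls, where diet and batch cannot be told apart. They were named after their values were seen. Retn, the adipocyte hormone resistin and a relative of Retnlg, fell by 1.82 on the log2 scale (SE 0.24, FDR = 0.000222, edgeR), and Retnla fell by 1.71 (SE 0.24, FDR = 0.00031, edgeR). S100a4 and S100a6, calcium-binding proteins of the S100 family, rose by 1.30 (SE 0.24, FDR = 0.00245, edgeR) and 1.25 (SE 0.23, FDR = 0.00289, edgeR). In batch 1 the values were −0.89 for Retn, −0.16 for Retnla, 1.63 for S100a4 and 0.47 for S100a6, and none of these had an FDR under 0.05. Without control replicate 4, S100a4 rose by 2.33 (FDR = 0.0378, edgeR), and without replicates 1 and 4 it rose by 2.23 (FDR = 0.0347, edgeR) and Retn fell by 1.70 (FDR = 0.0355, edgeR). Lcn2, of the neutrophil list, had 7755 counts in control replicate 1, the library with epididymis transcripts. Lcn2 had 41 to 210 counts in WD libraries and at most 50 in batch 2 controls. Its log2 fold change by diet was −4.88 (SE 1.58, FDR = 0.566, edgeR) in batch 1, −1.20 (SE 0.93) without control replicates 1 and 4, and 2.24 (SE 1.20, FDR = 0.372, edgeR) against batch 2 controls.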
